A study of Mus musculus with 8 samples.

Results

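The regions described here are 2184 stretches of chromatin called as H3K27me3 peaks in mouse embryonic stem cells (mESCs), away from the starts of named loci and listed in every library. They were chosen by merging the peak lists of all 4 ChIP-Seq libraries into 19460 regions, keeping the 5417 that held a peak of every library, and keeping of those the regions more than 1 kb from the 5' end of every named locus of the RNA-Seq count table, on the 17 autosomes other than chromosomes 8 and 11. They are called member sites below. Presence in all libraries and distance from a 5' end are therefore what defined them and not results. The distances nearest the limit were 1007, 1008 and 1012 bp inside it and 989, 973 and 969 bp outside it, and 1714 of the 2177 shared regions left out as promoter regions on the same autosomes contained a named 5' end.

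H3K27me3, trimethylated lysine 27 of histone H3, is laid down by the Polycomb repressive complex 2 (PRC2), and is found at silent developmental genes in embryonic stem cells. PRC2 is recruited mainly to CpG islands, stretches of DNA that keep a high density of the CG dinucleotide. The mark also spreads in a diffuse form over intergenic DNA, above all in cells kept with 2 kinase inhibitors (2i).

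The cells carried an Oct4-GFP reporter, were grown without feeders with LIF and 2i, and received either NaCl as the control or 10 µM morphine, an opioid, for 24 h before collection (P1). Each condition had 2 H3K27me3 ChIP-Seq and 2 RNA-Seq libraries from a single cell line, 8 libraries in all. All 10 markers of embryonic stem cells were expressed, from 192 CPM (counts scaled to library size) for Fgf4 to 1333 CPM for Pou5f1. Of 4 mesoderm, 5 endoderm, 4 trophoblast and 6 fibroblast markers none reached a mean of 10 CPM, the highest being Gata6 of the endoderm (9.39 CPM). Among 5 neural markers Tubb3 (110 CPM) and Sox1 (15.5 CPM) did. The control lists held 10305 and 13778 peaks and the morphine lists 8681 and 12282, and morphine replicate 1, the shortest list, bears on several results below. No peak of any library lay within 1 kb of the 5' end of any of the 58 Hox loci, and 14.2% of 268 autosomal loci of developmental transcription factor families had one, against 19.0% of all 38518 autosomal named loci. The count for Hox is that of the lists analysed here, which may hold only part of the calls, and does not show that the mark was absent there, since the study took the Hox region as a positive control of its ChIP-qPCR. The widest peak of any list measured 8642 bp.

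The sequences below show what the member sites span. The first set holds the 200 bp with most CG dinucleotides, outside annotated exons, in the 3 highest ranked members that held a CpG-dense window, were mostly single-copy and lay more than 1 kb from any GENCODE 5' end, for which at least 20 CGs were required. They come from the GRCm38 sequence (forward strand, coordinates as in mm10), with each CG in capitals. The nearest named loci were Mir6951, Noto, a homeobox gene of the notochord, and AK144875, at 16875, 12978 and 27978 bp.
chr15:38470761-38470960: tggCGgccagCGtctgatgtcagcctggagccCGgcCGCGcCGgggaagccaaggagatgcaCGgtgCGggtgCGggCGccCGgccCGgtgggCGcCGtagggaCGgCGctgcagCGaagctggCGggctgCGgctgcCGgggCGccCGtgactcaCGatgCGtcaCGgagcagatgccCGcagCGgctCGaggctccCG
chr6:85409182-85409381: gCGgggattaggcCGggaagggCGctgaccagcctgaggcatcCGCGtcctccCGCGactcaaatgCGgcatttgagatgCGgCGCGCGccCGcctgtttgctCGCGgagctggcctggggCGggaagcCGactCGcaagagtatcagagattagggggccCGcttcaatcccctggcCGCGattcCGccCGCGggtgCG
chr7:126535900-126536099: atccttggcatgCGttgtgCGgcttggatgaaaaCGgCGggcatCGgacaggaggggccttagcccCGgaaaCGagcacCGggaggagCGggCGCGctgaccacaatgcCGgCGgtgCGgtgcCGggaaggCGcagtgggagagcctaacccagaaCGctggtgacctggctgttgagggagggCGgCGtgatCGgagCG
These windows held 29, 25 and 21 CGs. The second set holds the central 200 bp outside exons of the 2 members whose lowest score over the libraries was highest, shown beside the first set for their fewer CGs.
chr9:35305339-35305538: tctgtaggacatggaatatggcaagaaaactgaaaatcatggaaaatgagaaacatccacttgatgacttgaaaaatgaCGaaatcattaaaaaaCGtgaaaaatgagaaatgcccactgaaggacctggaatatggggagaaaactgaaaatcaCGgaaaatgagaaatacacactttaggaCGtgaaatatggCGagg
chr14:19417367-19417566: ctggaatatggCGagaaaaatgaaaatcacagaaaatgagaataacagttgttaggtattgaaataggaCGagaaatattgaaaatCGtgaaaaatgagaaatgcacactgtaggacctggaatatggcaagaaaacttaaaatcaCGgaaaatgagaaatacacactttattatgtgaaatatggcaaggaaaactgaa
They held 5 and 4 CGs, and similar phrases recur within each. Shifted by 58 bp against itself, the whole chr14 site matched at 51.4% of bases and the chr9 site at 31.3%, where the median best match over all members (shifts of 20 to 1000 bp) was 29.1%. The last sequence is the middle of a member without a CpG-dense window whose lowest score was closest to the median of all members. It lay within the span of Mettl24, 65687 bp from its 5' end, and held 3 CGs.
chr10:40750024-40750223: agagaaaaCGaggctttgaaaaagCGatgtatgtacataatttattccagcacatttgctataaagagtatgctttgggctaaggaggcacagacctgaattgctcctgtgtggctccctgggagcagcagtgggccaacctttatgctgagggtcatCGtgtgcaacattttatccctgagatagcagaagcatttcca

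Member sites were spread over all 17 autosomes. They numbered from 76 on chromosome 19 to 185 on chromosome 4, or from 0.794 per Mb on chromosome 3 to 1.34 per Mb on chromosome 17, with 0.988 per Mb over the 17 together. Shared distal sites on chromosomes 8 and 11 numbered 2.09 and 2.98 per Mb, more than on any of the 17, and since the number of copies of each chromosome in these cells was not measured here, density and copy number cannot be told apart.

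The median member lay 21502 bp from the nearest named 5' end, and the quartiles were 7925 and 58033 bp. By distance, 352 members lay within 5 kb, 694 between 5 and 20 kb, 522 between 20 and 50 kb, 309 between 50 and 100 kb, 284 between 100 and 500 kb and 23 farther. Of the members 1109 (50.8%) were upstream of that 5' end. The span of a named locus overlapped 869 members (39.8%). In the GENCODE vM21 basic annotation, which holds more transcripts than the count table, 413 members (18.9%) lay within 1 kb of a 5' end after all, 163 of them of a protein-coding gene, while 427 touched an exon, 337 lay in introns and 1007 (46.1%) were intergenic. Distal therefore refers to the loci of the count table, and without these 413 the median distance was 22024 bp.

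The members farthest from any named 5' end were at chr2:98661283-98668277, 2343114 bp from that of Lrrc4c, and at chr5:78931605-78934359, 1419857 bp from that of AY487415. Next came chr14:113181575-113184518 near AB352403 and chr16:68715304-68720425 near 4930428D20Rik. All 4 of these loci were at 0 counts in every RNA-Seq library. The chr2 site scored between 1616 and 1775 in the 4 libraries, but it holds a GENCODE 5' end of Gm10801, annotated as protein-coding, and 64.3% of its 32-base words occurred again elsewhere in GRCm38, so that it is remote from the loci of the count table only. The chr5 site, 151746 bp from the nearest GENCODE 5' end, scored 53.7 and 93.1 in the controls and 55.5 and 72.6 after morphine (percentiles of 7.86 and 58.5 against 11.6 and 38.4).

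Most members stood alone. Within 50 kb of another member lay 444 (20.3%, 95% Wilson interval 18.7 to 22.1%), which formed 171 pairs, 30 clusters of 3 and 3 clusters of 4. The share was 17.4% for shared promoter regions of the same autosomes and 35.6% for shared distal sites of chromosomes 8 and 11. The median gap between neighbouring members was 455996 bp. A shared promoter region lay within 10 kb of only 87 members (3.98%) and within 50 kb of 343 (15.7%). The clusters of 4 were at chr13:3343357-3410463 near 2810429I04Rik, at chr5:14958400-15052745 near Speer8-ps1, Gm10354 and Gm17019, and at chr6:130866438-130990285 near AK136154. Of these 5 loci 2810429I04Rik reached 0.136 CPM in control replicate 2, and the other 4 were at 0 counts in all. The 4 members of the chr5 cluster consisted mostly of repeated sequence, with 73.6 to 84.0% of their 32-base words found again elsewhere in GRCm38. The next cluster, of 3, lay at chr5:36629513-36702076 by Tbc1d14 and D5Ertd579e, both expressed.

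In width, the median member covered 2927 bp in control replicate 1 and 3249 bp in control replicate 2, and 2862 and 3130 bp in the morphine replicates. Shared promoter regions covered more, with medians of 3499, 3665, 3698 and 3841 bp in the same order. The members' median scores (-10 log10 of the peak's p-value, never below 50 in these lists) were 106 and 124 in the controls and 93.6 and 117 after morphine, below those of the promoter regions in each library (136, 148, 120 and 141). Thus members were narrower and lower in score than promoter regions in 4 of 4 libraries. A wider region is more likely to reach a 5' end and be put among the promoter regions, so the rule bears on this difference.

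**Figure D1:**
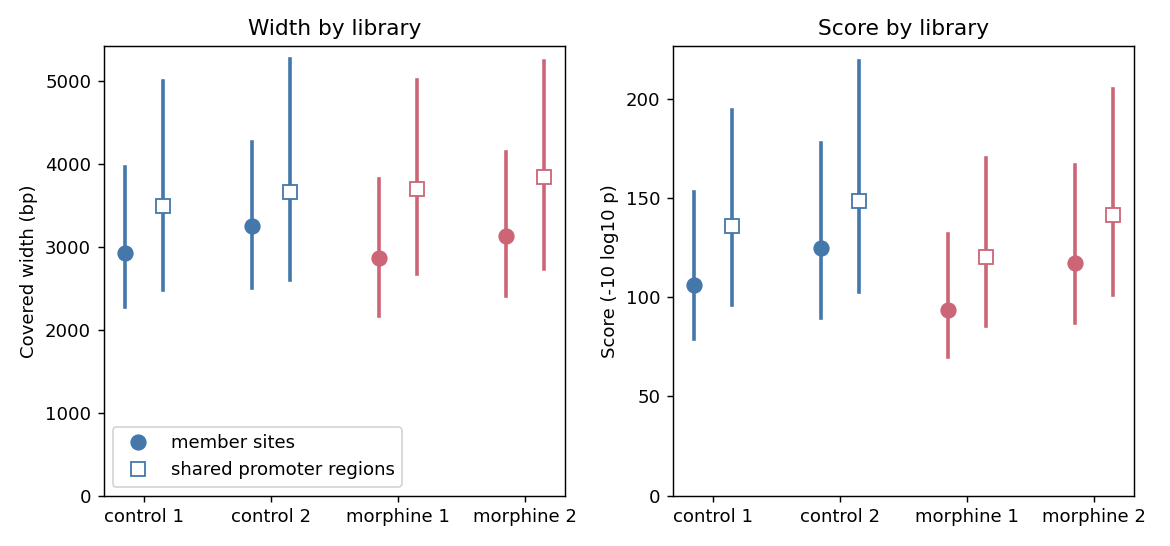
Median (symbol) and quartiles (ends of the bar) of the covered width in bp and of the peak score in each library, for member sites (filled circles) and shared promoter regions of the same autosomes (open squares), control in blue and morphine in red. Members sat below promoter regions in all 4 libraries, and both scores were lowest in morphine replicate 1.

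The comparison of morphine with control asks whether the treatment changed the extent of sites listed in both conditions. The median covered width was 3088 ± 228 bp in the control and 2996 ± 189 bp after morphine (SD, n = 2 each), a difference of -92.3 bp that was smaller than the pooled SD of 209 bp (exact permutation test, two-sided, p = 0.667, where 2 libraries against 2 allow no p below 0.333). It turned to 70.5 bp without control replicate 2 and to 16.0 bp without morphine replicate 1. The score, given as a percentile of all scores of its own list, had medians of 65.8 and 74.7 in the controls and 58.3 and 71.7 after morphine. The difference of -5.27 points was below the pooled SD of 8.02 (p = 0.667 by that exact test), and it was 0.310 points without morphine replicate 1. Ranked among the shared autosomal regions only, which removes the length of the list, the median member stood at 42.2, 44.3, 41.9 and 43.4 in the same order of libraries.

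Taken against the promoter regions of the same library, the median width of members was smaller after morphine. The ratio of the median widths, member to promoter, was 0.837 and 0.886 in the controls and 0.774 and 0.815 after morphine. Both morphine libraries lay below both controls, and they differed by -0.0672, more than the pooled SD of 0.0323 (exact permutation test, two-sided, p = 0.333, which is the lowest value available). This ratio was added after the data had been seen. The difference was -0.0368 when distances were taken from the midpoint and -0.0415 without control replicate 2. The ratio of median scores showed no such separation (0.783 and 0.838 against 0.778 and 0.830). The promoter regions moved in the ratio of widths, with a median width of 3582 ± 117 bp in the control and 3770 ± 101 bp after morphine (SD, n = 2 each). The rule bears on this difference as well, since it used the edges of regions merged over all lists. A region widened in the morphine libraries reached a 5' end more readily and was then put among the promoter regions. The ratio is thus a description and cannot decide whether morphine acted differently on the classes.

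Site by site, both morphine libraries were wider than both controls at 267 members (12.2%) and narrower at 427 (19.6%). Over all 5336 shared autosomal regions these shares were 19.3% and 16.5%, and among the promoter regions 24.7% and 14.7%. Shared distal sites of chromosomes 8 and 11 leaned little, at 15.1% and 16.5%. So the members leaned to the narrower side and the promoter regions to the wider. The rule bears on these shares too, since a region widened after morphine more readily reached a 5' end and became a promoter region. Shares by distance from the midpoint are not given here, so the lean is a description only. For the score percentile, both morphine libraries were higher at 10.3% of members against 12.5% of all shared autosomal regions and lower at 21.5% against 23.0%, shares that move with the length of the lists. The lean in width went with CpG content among members and among promoter regions. Of the 1626 members without a CpG-dense window, 10.4% were wider and 21.2% narrower after morphine, and of the 558 with one, 17.6% and 14.9%. Promoter regions with such a window were wider in 28.1% and narrower in 13.3% of 1636 cases, and those without in 14.2% and 19.2% of 541. The part of CpG content in the width difference was not tested.

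**Figure D2:**
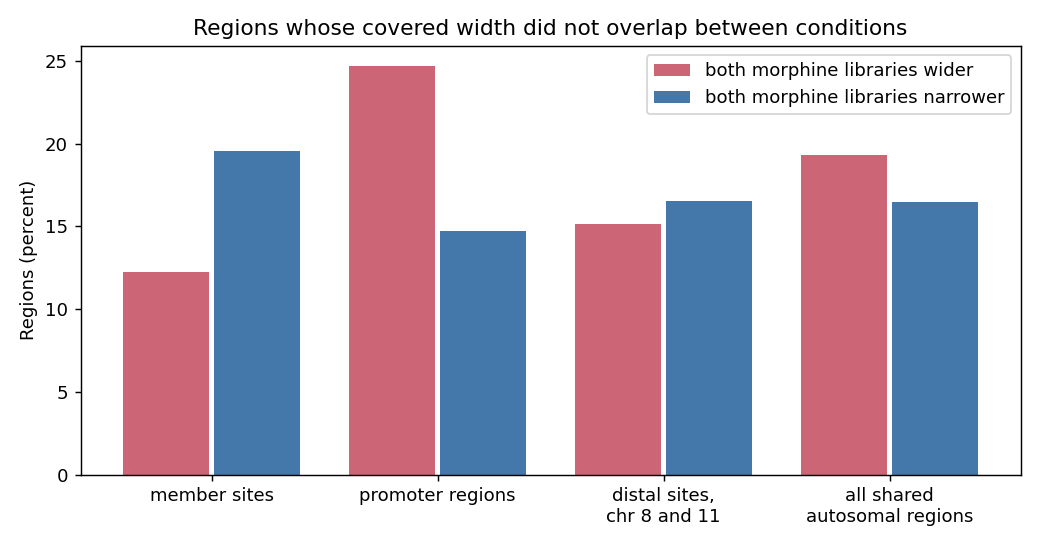
Percent of regions at which both morphine libraries were wider (red) or narrower (blue) than both controls, for member sites, shared promoter regions, shared distal sites of chromosomes 8 and 11 and all shared autosomal regions. Members showed 12.2% wider and 19.6% narrower, promoter regions 24.7% and 14.7%, and distal sites of chromosomes 8 and 11 15.1% and 16.5%. Region width itself bears on the split into these classes.

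Member sites were richer in CpG than the genome around them and poorer than promoter regions. Their median GC content was 44.8%, between 41.3% for all 537593 tiles of 4 kb on the same autosomes and 48.9% for promoter regions. The median ratio of observed to expected CpG was 0.252, against 0.167 for tiles and 0.388 for promoter regions. A CpG-dense window, here 500 bp of over 55% GC in which CpG reached over 0.65 of its expected number, occurred in 25.5% of members, 3.22% of tiles and 75.1% of promoter regions. Of the 558 members with one, 231 (41.4%) lay within 1 kb of a GENCODE 5' end, against 182 (11.2%) of the 1626 without.

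The share of members with a CpG-dense window rose with the lowest score over the libraries, from 9.48% (95% Wilson interval 7.20 to 12.4%) of 496 members scoring 50 to 60 to 65.3% (55.5 to 74.0%) of 98 scoring 200 to 300. It was 56.5% (36.8 to 74.4%) of the 23 scoring 300 to 500 and 23.3% (11.8 to 40.9%) of the 30 members that scored 500 or more in all libraries. A median of 22.3% of the 32-base words of the 23 and 28.2% of those of the 30 occurred again elsewhere in the genome, against 4.59% over all members, and the median merged width of the 30 was 2284 bp against 3674 bp for all members. In only 2 shared promoter regions did the lowest score reach 500. Among the 30 strongest peaks of each list, 22 to 24 lay in member sites. Repeated words made up over 50% of 148 members (6.78%) and of 29 promoter regions (1.33%). The handling of reads that align to several places and the control library of the peak caller are not given in the sources used here, and the part of repeated sequence in these scores was not tested. Without the 30 members the width difference was -97.5 bp and the ratio difference -0.0687.

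**Figure D3:**
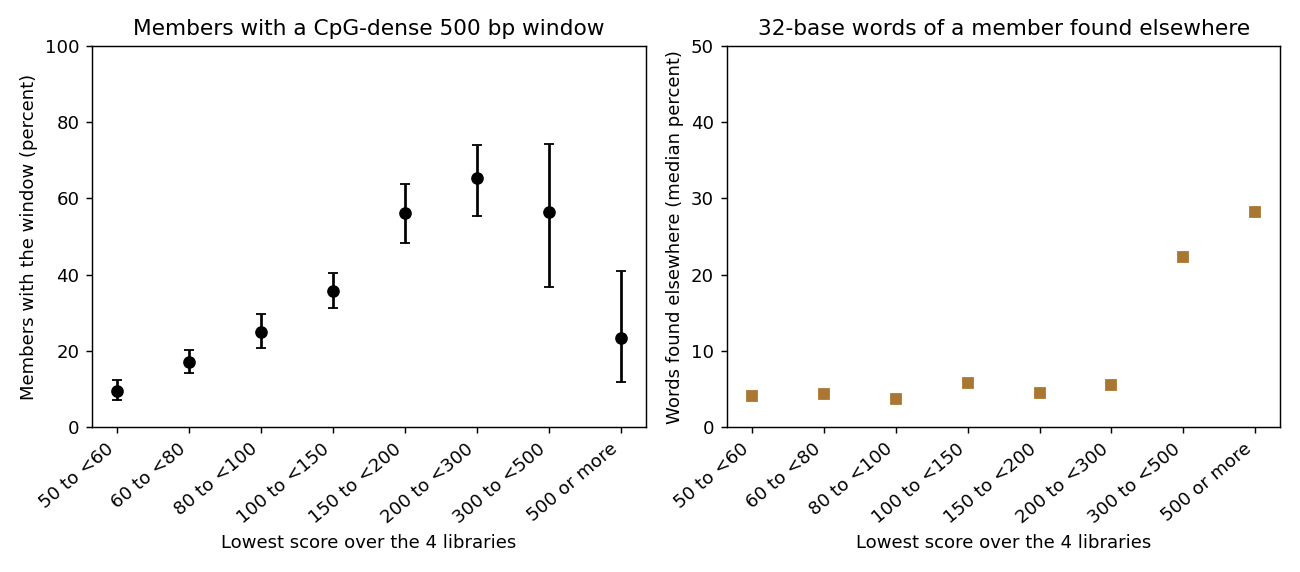
Left, percent of members with a CpG-dense window of 500 bp (95% Wilson interval, counting error only), and right, median percent of 32-base words found elsewhere in the genome, by the lowest score over the 4 libraries. The first rose to 65.3% and dropped to 23.3% at scores of 500 or more, where the second reached 28.2%.

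Members were ranked by the lowest of their score percentiles over the 4 libraries. The sites at chr9:35304337-35306541 and chr14:19414758-19420003, shown above, both had a score of 3100 in every library, a value that looks like a ceiling, since 2 or 3 peaks of each list had exactly it and 1 peak of all lists exceeded it. Their equality says nothing of how alike the libraries were. Next in rank came chr3:96043571-96045993, within Vps45, an endosomal trafficking gene, with scores of 2835 and 3199 in the controls and 2621 and 2957 after morphine. They were followed by chr12:3108918-3111021, 124505 bp from Rab10os, which scored 3100 and 2728 in the controls and 2396 and 2514 after morphine, and by a pair at chr5:36629513-36631075 and chr5:36660492-36662577 by Tbc1d14 and D5Ertd579e. The pair matched itself at a shift of 33 bp, at 55.2% and 65.4% of bases. None of the tested loci nearest these 6 sites passed the RNA test (adjusted p from 0.492 to 0.852, edgeR's quasi-likelihood test).

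The widest members, by the mean width covered over the 4 libraries, were of mixed kinds. At chr13:119595254-119603739, 2909 bp upstream of Tmem267, the libraries covered 8444, 8428, 8472 and 8448 bp (controls first), and 68.8% of its words were repeated. The site at chr13:98387724-98395672, 33479 bp downstream of Foxd1, a forkhead transcription factor, covered 7801, 7793, 7871 and 7573 bp and held a CpG-dense window. The site at chr10:7387911-7396279, 77198 bp from the 5' end of Ulbp1, a ligand of an activating receptor of natural killer cells, covered 7815, 8019, 8285 and 7952 bp. It contained a GENCODE 5' end of Gm21321 and a CpG-dense window, and 35.7% of its words were repeated.

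The nearest loci were 1960, of which 1449 were protein-coding by GENCODE. Nearly as many were silent as expressed. Their mean level was under 0.5 CPM for 45.6% (95% Wilson interval 43.4 to 47.8%), against 31.7% of the loci nearest promoter regions and 59.9% of all 40846 named loci, and 33.6%, 34.3% and 23.0% reached 10 CPM. Between libraries the members' share under 0.5 CPM ran from 45.0 to 45.8%. With protein-coding loci only, the shares under 0.5 CPM were 30.8%, 26.0% and 45.1%. A higher share was silent at greater distance, from 37.9% of loci 1 to 5 kb from a member to 56.2% of those over 100 kb away, with median levels of 4.72 and 0.201 CPM. Which gene a distal site acts on, if any, was not measured.

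Among the loci nearest to members, the 5 with the highest RNA within 50 kb were Rpl8 and Rplp1, which encode ribosomal proteins, Hnrnpu, a nuclear RNA-binding protein, Pkm, a glycolytic enzyme, and Hspa9, a mitochondrial chaperone, with group means from 845 CPM (Hspa9 after morphine) to 2094 CPM (Rpl8 after morphine). Rpl8 was at 1887 and 1943 CPM in the controls and 2171 and 2018 CPM after morphine, and its site, 6309 bp downstream of the 5' end, scored 234, 91.5, 253 and 222. The GENCODE 5' end nearest to this site was that of Zfp647, at 4459 bp. Sites thus occurred within 10 kb of the 5' end of a highly expressed gene, which was not always the gene with the nearest start. None of the 5 passed the RNA test (adjusted p from 0.0608 to 0.939, edgeR).

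Loci of developmental transcription factor families made up 20 of the nearest loci (1.02%, against 0.693% of all named loci), and 11 of the 20 were under 0.5 CPM. The 4 whose sites ranked highest were Meis3, Dlx2, Sox4 and Neurog2. Neurog2, a proneural factor, had 0 counts in all libraries but control replicate 2, and Dlx2, a factor of forebrain interneurons, was at 0.109 to 0.204 CPM, while Sox4 was at 18.8 to 20.4 CPM. No Hox locus was nearest to a member in these lists, a count under the limit given for them above, and Wnt2b was the only locus of a Wnt ligand. Zfp loci, which encode zinc finger proteins, numbered 58 (2.96%, against 1.04% of all named loci), and 6 of them were under 0.5 CPM. The 21 olfactory receptor loci (Olfr) were 1.07% of the nearest loci, against 2.92% of all named loci, and 20 of them were under that level. The 44 microRNA loci (Mir) were 2.24% against 2.43%, and 43 of them were. The number of loci of the Slc family was 33, of Tmem 20, of Pcdh 3 and of Vmn 5 (0.255% against 0.886% of all named loci). Of the families counted, Rik clones (173, 8.83% against 5.90%) and Gm-numbered models (80, 4.08% against 3.87%) held most loci.

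Of 1123 nearest loci tested, 8 were called up (0.712%) and 4 down (0.356%) after morphine at an FDR of 0.05 (edgeR's quasi-likelihood test, adjusted over all 20350 loci tested). Over all loci these shares were 0.614% and 0.904%. An unadjusted p under 0.05 was found for 250 of the 1123 (22.3%) and for 4174 of all 20350 (20.5%). Their median log2 fold change was -0.02 against 0.00 for all loci. Without morphine replicate 1 there were 1 up (Ttc14, 0.0865%) and 0 down, against 0.0471% and 0.0141% of all loci. Without control replicate 2 there were 34 up (2.95%) and 59 down (5.11%), against 3.14% and 4.53% of all loci. Nothing particular to the members is read from these shares.

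Among the 12 called loci, Ttc14 had the largest log2 fold change. It was at 47.3 and 46.3 CPM in the controls and 77.7 and 88.4 CPM after morphine, with no overlap, a log2 fold change of 0.83 (SE 0.07, adjusted p = 0.000459 by edgeR), and was called in 10 of 10 alternative fits. The other 11 were called in 6 to 9 of the 9 or 10 fits that gave them an adjusted p. Its site, chr3:33808266-33810316, lay inside the locus, 8083 bp from the 5' end, and scored 338 and 503 in the controls and 336 and 283 after morphine. As percentiles of their own lists these scores were 98.1 and 99.3 against 98.6 and 96.4, so that the conditions overlapped, while the width was larger in both morphine libraries (1812 and 1883 bp against 1912 and 2051 bp).

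Among the loci called up were Cyp51 and Insig1, both of sterol metabolism, though no set of sterol genes was counted or tested here. Cyp51, a demethylase of cholesterol synthesis, was at 253 and 251 CPM in the controls and 295 and 313 CPM after morphine (log2 fold change 0.27, SE 0.05, adjusted p = 0.0236 by edgeR). Insig1, which holds back the activation of sterol genes, went from 81.4 and 75.3 CPM to 93.8 and 96.7 CPM (0.28, SE 0.06, adjusted p = 0.0413 by edgeR). The Cyp51 site at chr5:4052112-4054720, 49977 bp from its 5' end, scored 62.9 and 64.4 in the controls and 184 and 184 after morphine (percentiles of 24.2 and 27.4 against 89.9 and 88.4) and widened from 1797 and 2088 bp to 2542 and 2587 bp. Both measures separated the conditions there, and 82.6% of its words were repeated elsewhere in the genome. The Insig1 site at chr5:28100759-28106420 narrowed from 5436 and 5662 bp to 4960 and 4720 bp, while its scores overlapped (98.5 and 136 against 110 and 191).

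Bmp4, a secreted signalling factor of the TGF-beta family, was at 68.3 and 71.5 CPM in the controls and 87.8 and 85.4 CPM after morphine (log2 fold change 0.31, SE 0.05, adjusted p = 0.0263 by edgeR). Its site, chr14:46395556-46400248, lay 4887 bp upstream, held a CpG-dense window and covered 4428, 4501, 4285 and 4538 bp, so that its width overlapped between conditions, as did its score percentile (87.9 and 90.4 against 89.5 and 80.1). Plxnb2, a semaphorin receptor, rose from 153 and 155 to 179 and 178 CPM (log2 fold change 0.21, SE 0.05, adjusted p = 0.0494 by edgeR). With the trends of length and GC removed its change was 0.10 and did not pass (adjusted p = 0.297 by edgeR). Its site at chr15:89171372-89173710, inside the locus and 684 bp from a further GENCODE start of Plxnb2, scored 111 and 91.5 in the controls and 58.4 and 58.3 after morphine (percentiles of 67.9 and 57.3 against 16.7 and 16.9) and narrowed from 2285 and 2002 bp to 1894 and 1864 bp. The other loci called up were Slc17a9, a vesicular nucleotide transporter, Map7d1 and Sptbn4, a spectrin, with log2 fold changes of 0.40, 0.28 and 0.25.

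**Figure D4:**
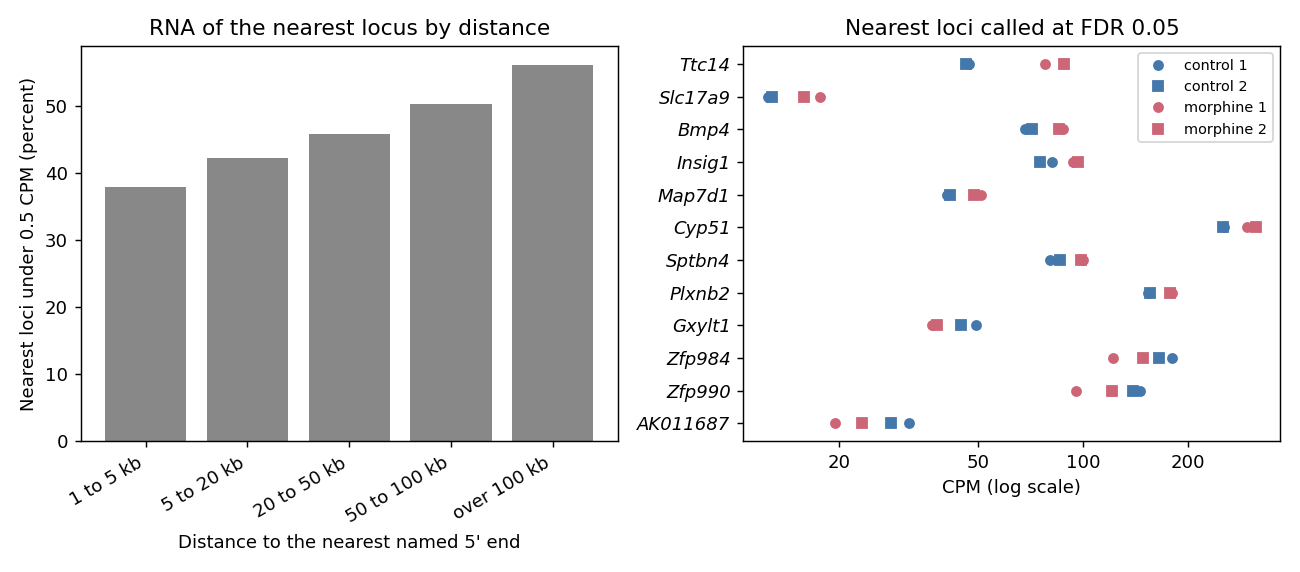
Left, percent of nearest loci with a mean level under 0.5 CPM by the distance of the member from the 5' end, and right, CPM (log axis) of the 12 called loci in each RNA-Seq library, control in blue and morphine in red (circles replicate 1, squares replicate 2). The left share runs from 37.9 to 56.2%, and in each called locus the conditions do not overlap.

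The loci called down were AK011687, Zfp990, Zfp984 and Gxylt1, a xylosyltransferase that modifies Notch receptors. AK011687 fell from 31.8 and 28.2 CPM to 19.5 and 23.2 CPM (log2 fold change -0.48, SE 0.09, adjusted p = 0.0342 by edgeR), Zfp990 from 146 and 139 to 95.3 and 121 CPM, and Zfp984 from 180 and 165 to 122 and 148 CPM. In all 3 the lowest value was that of morphine replicate 1. By DESeq2 Zfp990 and Zfp984 did not pass (adjusted p of 0.111 and 0.110). These 3 loci lie with Zfp985, at an adjusted p of 0.0564 (edgeR), at chr4:145510759-147809788, an interval chosen after the values were seen, which held 19 members. The sequence of these members was mostly not unique, with a median of 90.5% of words repeated (10.4 to 99.2%). The member nearest Zfp990, chr4:145493631-145499280, lay outside the interval and is not among the 19. It had 79.4% of its words repeated. Both sites closest to AK011687 were lower, at 34.9% and 10.4%. Repeated words were not measured on the RNA loci, and the part of repeated sequence in these scores and counts was not tested. For Gxylt1 the site was 139998 bp away and the RNA went from 49.4 and 44.6 to 37.0 and 38.1 CPM. With the trends of length and GC removed, Ttc14, Cyp51 and Insig1 stayed under an FDR of 0.05 (adjusted p of 3.13e-06, 0.000466 and 0.0280 by edgeR) and the other 9 loci did not. The fitted change was smaller in those, at 0.24 for Bmp4 (adjusted p = 0.0509 by edgeR), -0.35 for AK011687, -0.14 for Zfp990, -0.09 for Zfp984, 0.09 for Map7d1, 0.10 for Plxnb2, 0.12 for Sptbn4, 0.27 for Slc17a9 and -0.21 for Gxylt1 on the log2 scale.

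Of the members, 86 overlapped a locus without a name in the count table, in all 86 such loci. Of the 73 tested, 0 were called up and 7 down (9.59%, by edgeR at an FDR of 0.05), against 0.614% and 0.904% of all loci. All loci are mostly named ones, and the shares over the other unnamed loci are not given here. Nothing particular to members is therefore read from this difference, nor from those of the alternative fits below. An unadjusted p under 0.05 was found for 26 of the 73 (35.6%), against 4174 of all 20350 loci. DESeq2 called 0 up and 1 down of the 13 it tested (7.69%, against 6.25% of all loci it tested). The most abundant, MSTRG.7533 at chr17:39842997-39848829, was at 3931 CPM in control replicate 1 and at 1636, 1759 and 1410 CPM in the other libraries, and did not pass (adjusted p = 0.122 by edgeR). Among the called, MSTRG.13455 at chr5:146260991-146261353 was at 626 and 403 CPM in the controls and 325 and 257 CPM after morphine. In all 7 called but MSTRG.12173, levels fell in the order control replicates 1 and 2, then morphine replicates 1 and 2. The libraries of a condition thus differed from each other as well, and the part of library quality in these calls was not tested. Control replicate 1 held the highest value in 39 of the 73 loci, a share not given here over all loci, and in each of the 7 called. Without it 10 of 77 were called down (13.0%, against 0.945% of all loci) and 1 up, and without control replicate 2 the numbers were 20 of 75 (26.7% against 4.53%) and 1. Without morphine replicate 2 only 2 of 77 were called down (2.60%, near the 1.99% of all loci), and without morphine replicate 1 none was called. The exact test of edgeR called 14 down (19.2% against 2.30% of all loci), the fit with the replicate block 19 (26.0% against 3.39%), the fit without a count filter 20 (23.3% against 3.42%) and the fit with length and GC trends removed 5 (6.85% against 0.148%).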

How the data were processed

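Member sites and gene lists were chosen with earlier results of these data known. The authors aligned ChIP-Seq reads to mm10 with Bowtie2 (version 2.3.5.1 in the submitters' processing notes) and called peaks with MACS separately for the libraries, with a p-value cut-off of 1e-05. The deposited scores are on the scale of -10 log10 of a peak's p-value, with 3100 recurring as a ceiling-like value for the strongest peaks. The lists give no read counts, so the depth behind a peak is unknown. For ChIP the labels name an AbClonal antibody and the paper a Millipore one.

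For RNA-Seq, the deposited values are raw counts per locus, made by the authors with HISAT2 (2.1.0), StringTie (1.3.6) and featureCounts (1.6.4) from stranded libraries. The strand setting of the counting is not given in the sources used here. Total counts per library ran from 25081266 to 29531096.

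Peaks were merged at 1 bp of overlap. Covered width is the length of a member covered by a library's peaks, and its score the highest of them. Distance was taken from the edge of the merged region. Exact permutation tests (two-sided) compared library medians. Counts were filtered by filterByExpr, scaled by TMM and fitted in edgeR 4.0.16 (R 4.3.3; quasi-likelihood test), with DESeq2 (1.42.0) as an alternative. CPM uses the TMM library sizes. Names, biotypes and 5' ends beside those of the count table came from GENCODE vM21, and base composition and repeated words (32 bases, 1 in 10 words, either strand) from the RefSeq copy of GRCm38. Python 3.11.15 with scipy 1.17.1 was used. On simulated intervals 5 of 5 peak measures were recovered. The loci named are those called, those nearest the 6 strongest, 4 widest and 4 farthest members and the 4 largest clusters, the 5 with the highest RNA within 50 kb, and up to 4 of a family, of which 1 of the widest members is not reported here. Loci nearest the printed sequences, the interval on chromosome 4 and the unnamed loci were added after values were seen. Alternatives varied the score limit, peak number, overlap, distance, annotation, nearest locus, CPM limit, test, scaling, filter and libraries.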

Additional observations from a re-analysis of the deposited data

How the results depend on the processing

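A score of at least 100 left 709 members, with 8.89% in clusters and 40.2% of nearest loci under 0.5 CPM. With the 8681 strongest peaks of each list 17.6% were in clusters. Distances over 3 kb gave a median of 25659 bp and 18.2% in clusters, 5' ends of all loci a median of 18964 bp, and distances from the midpoint 3396 members, a median of 9141 bp, 27.6% in clusters and 37.7% under 0.5 CPM. The share in clusters was 17.5% without members within 1 kb of a GENCODE 5' end, 6.73% at 10 kb and 32.4% at 100 kb. The share under 0.5 CPM was 40.1% by gene body, 42.7% within 50 kb and 30.2% by the nearest protein-coding locus, and limits of 0.1 and 1 CPM gave 34.5% and 51.1%. Leaving out 1 ChIP-Seq library, the width difference ran from -231.5 to 70.5 bp, the percentile difference from -13.0 to 0.310 points and the share in clusters from 21.1 to 25.2%. The difference in the ratio of widths stayed negative in all alternatives run, from -0.0899 to -0.0368, under the limit of the rule given above.

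Of nearest loci, the exact test of edgeR called 24 up (2.14%) and 30 down (2.67%; all loci 1.59% and 2.30%), no count filter 32 (2.02%) and 71 (4.49%; all loci 2.02% and 3.42%), and DESeq2 11 (2.68%) and 26 (6.33%; all loci 4.14% and 6.25%). With the length and GC trends removed 4 (0.356%) and 0 were called (all loci 0.246% and 0.148%). Nearest gene bodies gave 10 up (0.829%) and 9 down (0.746%), loci within 50 kb 8 (0.894%) and 2 (0.223%), and nearest protein-coding loci 11 (0.804%) and 10 (0.730%; all protein-coding loci 0.679% and 0.830%). Leaving out 1 RNA-Seq library gave 1 to 34 up and 0 to 59 down, where all loci ran from 0.0471 to 3.14% up and from 0.0141 to 4.53% down. Of these fits, that without control replicate 1 called 0.518% of members up and 0.949% down (all loci 0.751% and 0.945%), and that without morphine replicate 2 called 0.777% and 2.76% (all loci 0.865% and 1.99%). With the replicate block 26 were up (2.32%) and 44 down (3.92%; all loci 2.16% and 3.39%). The numbers do not pair the samples by any label, and the deviations of same-numbered libraries correlated at 0.0058 across loci, so the block was not used. No locus called in the main test changed direction in any alternative. Removing the members scoring 500 or more, those at GENCODE 5' ends, ranking among shared regions, protein-coding loci and the ratio of widths were chosen after seeing the data. The causes of these changes were not tested. With 2 libraries a condition and no reads under the peaks, small changes in the mark were not detectable.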
